A study of Homo sapiens with 4 samples.

Results

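The genes described here encode integrins and the proteins of focal adhesions, 45 genes chosen by name out of the 58825 gene rows of the count files, of which 20 are integrin subunits (12 alpha and 8 beta) and 25 belong to the adhesion plaque. Integrins are cell surface receptors made of 1 alpha and 1 beta chain, and the pair decides which matrix protein, such as collagen, laminin or fibronectin, is bound. Inside the cell, talins and kindlins bind the beta tail and switch the receptor on, the kinases FAK and SRC and scaffolds such as paxillin and p130Cas relay the signal, and vinculin, tensins, zyxin and VASP tie the adhesion to actin. In gut epithelium, integrins also hold the cell layer on its basement membrane, with the alpha 6 and beta 4 pair as the laminin receptor of hemidesmosomes.

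The samples were 4 libraries of LoVo cells, a line from a human colorectal adenocarcinoma that carries an uncleaved, constitutively phosphorylated MET receptor. MET+ cells (2 biological replicates) were labelled as wild type and GFP control. MET-KO cells (2 biological replicates) were made with CRISPR/Cas9 and a puromycin resistance plasmid, and clones were picked by hand and chosen by the loss of MET protein; whether both MET-KO libraries came from 1 clone is not given in the sources used here. All cells were grown in DMEM with serum. The comparison asks which adhesion receptors and plaque genes differ between the 2 states. In MET-KO cells the loss of MET came together with the selection and the picking of clones, so their parts in a difference cannot be told apart.

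Each library held 8429142 to 10286552 counts, and 17849 to 19722 genes had at least 1 count. MET itself was at 337 and 335 CPM in the MET+ libraries, against 84.3 and 88.7 CPM in the MET-KO libraries (log2 fold change -1.96, 95% interval -2.15 to -1.77, edgeR adjusted p = 1.49e-18), a value for the mRNA level only. LoVo identity was checked on 14 markers of colorectal epithelium: EPCAM, CDH1, CDX2 and the keratins KRT8, KRT18 and KRT19 were detected in every library, CDX1 was at 0 in every library, and CDH17, CEACAM5 and GPA33 were at 0 in MET-KO cells. Of the 13 markers tested, 10 fell, 7 of them by 1 or more on the log2 scale, and 2 rose. Of all 13801 tested genes, 26.9% fell, 27.2% rose and 24.3% changed by 1 or more in either direction. HNF4A, an intestinal transcription factor, was at 65.3 and 82.4 CPM in MET+ against 8.12 and 5.61 CPM in MET-KO cells (log2 fold change -3.43, edgeR adjusted p = 5.75e-19), VIL1, the gene of villin, had 43 and 58 counts in MET+ against 3 in each MET-KO library, and LGALS4 had 89 and 107 counts against 1 in each. The risers were CDX2 and KRT20, the latter with no count in MET+ against 27 and 28 counts in MET-KO cells. KRT20 thus entered the test through MET-KO cells alone, and CDH17, CEACAM5, GPA33, VIL1 and LGALS4 through MET+ cells alone. The part of these marker shifts in the results below was not tested. Of the markers of other cell types, 6 of 8 for fibroblasts, 7 of 8 for leukocytes and 4 of 6 for endothelium had at most 3 counts in every library, LYZ being the leukocyte exception with 38, 79, 3 and 1 counts. The colorectal markers summed to 9781 and 9833 CPM in MET+ against 8314 and 7327 CPM in MET-KO cells, a sum made up mostly of KRT18 (6172 and 5850 against 5118 and 4621 CPM). The fibroblast markers summed to 2.17 and 1.64 against 3.82 and 4.32 CPM, the leukocyte markers to 4.83 and 8.1 against 0.294 and 0.368 CPM, and the endothelial markers to 0.845 and 0.922 against 0.0979 and 0 CPM. Among the fibroblast markers COL3A1 rose, with 4 and 5 counts in MET+ against 24 and 26 in MET-KO cells (log2 fold change 2.22, edgeR adjusted p = 0.00109). COL1A1, with 13 and 10 against 13 and 19 counts, did not pass the test (edgeR adjusted p = 0.718). In counts from bulk RNA, fewer expressing cells and less RNA per cell cannot be told apart.

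Among the 45 genes, 41 had enough counts to be tested, and in edgeR's quasi-likelihood test 28 of them (68.3%) passed an adjusted p of 0.05, against 54.1% of all 13801 tested genes. Of these, 11 rose in MET-KO cells, where 27.2% of all tested genes did, and 17 fell, where 26.9% did. A change of at least 1 on the log2 scale was found for 18 of the 41, 6 upwards and 12 downwards, against 24.3% of all tested genes. The 2 groups did not overlap for 33 of the 41 (80.5%), against 75.6% of all tested genes, so that a lack of overlap was the rule in this comparison. ITGB2, ITGB6 and ITGB7 had fewer than 10 counts in both libraries of 1 state and entered the test through the other state. The median log2 fold change of the 41 was -0.20, and 0.01 over all tested genes. The plot of fold changes by role shows that every role but the complex of ILK, PINCH and parvin held genes that rose and genes that fell. By role, 55.6% of alpha subunits, 71.4% of beta subunits and 75% of integrin activators passed the test. The shares were 83.3% for actin linkers, 66.7% for kinases and scaffolds, 80% for LIM proteins and 50% for the ILK complex. Each role held only 4 to 9 tested genes, and the share over all tested genes was 54.1%.

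**Figure D1:**
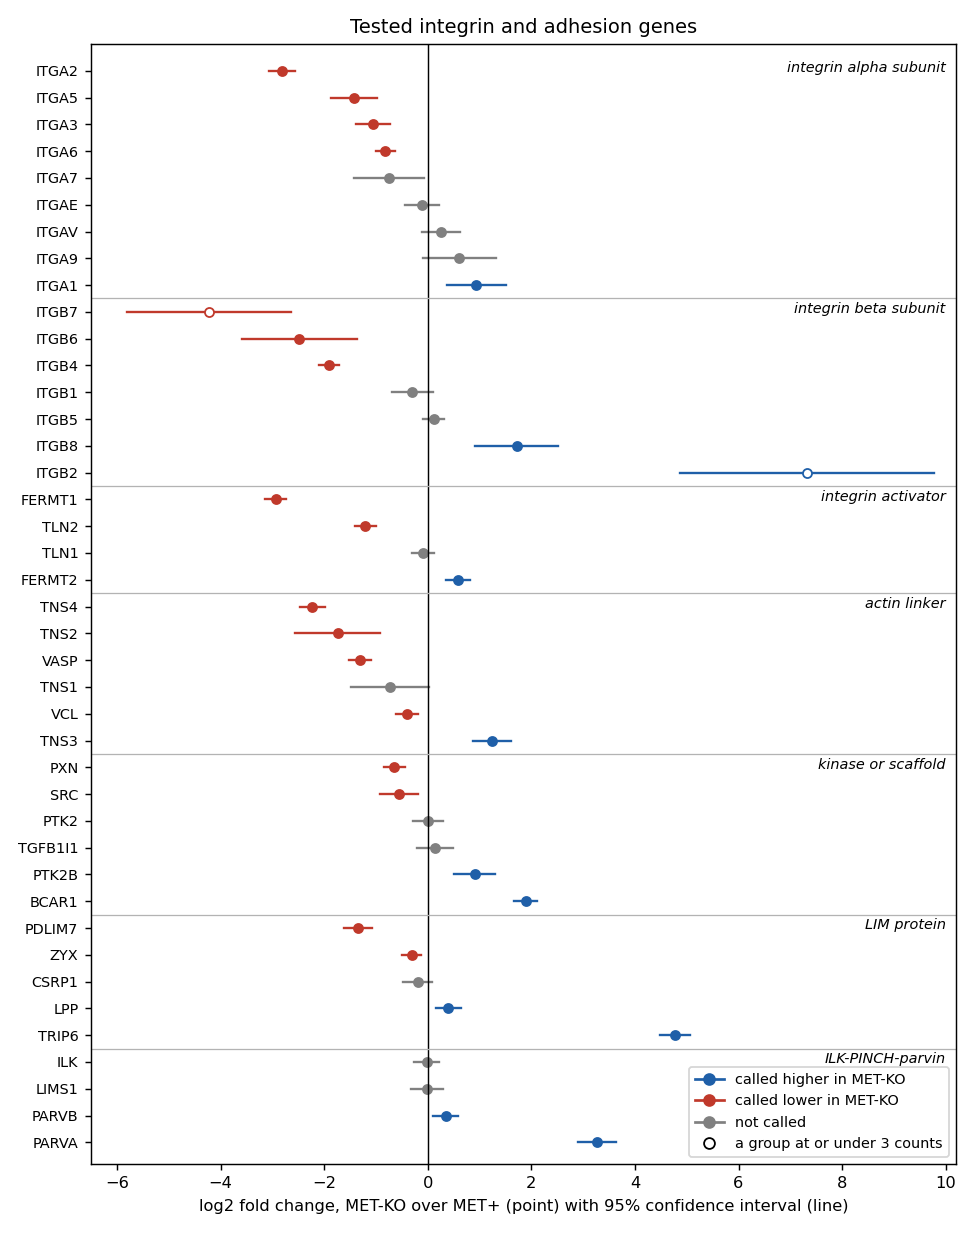
The 41 tested genes by role, with the log2 fold change of MET-KO over MET+ cells (2 libraries each) on the x axis as points and the 95% interval as lines. Blue genes rose, red genes fell and grey genes did not pass the test; PARVA and TRIP6 lie at 3.27 and 4.77, FERMT1 and ITGA2 at -2.94 and -2.82, and open points mark genes with a group at or under 3 counts in each library, whose fitted value depends on the fit.

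Stretches of promoter are shown for 4 genes that changed by over 1 on the log2 scale, TRIP6 and BCAR1, which rose, and ITGA5 and ITGA2, which fell. They were chosen after their values were seen. Each runs from 250 bases before a RefSeq start site (GRCh38.p14) to the start base, 5′ to 3′ on the gene's strand, and capitals mark a TEAD motif (GGAATG) or an AP-1 motif (TGANTCA). Both were sought on either strand, and neither overlaps the other here.
TRIP6, chr7:100867137-100867387, plus strand: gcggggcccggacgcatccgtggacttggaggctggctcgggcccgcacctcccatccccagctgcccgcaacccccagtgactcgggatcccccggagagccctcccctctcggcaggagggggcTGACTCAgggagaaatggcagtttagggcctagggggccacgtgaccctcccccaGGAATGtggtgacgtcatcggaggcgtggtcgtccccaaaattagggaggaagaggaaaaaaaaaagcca
BCAR1, chr16:75268007-75268257, minus strand: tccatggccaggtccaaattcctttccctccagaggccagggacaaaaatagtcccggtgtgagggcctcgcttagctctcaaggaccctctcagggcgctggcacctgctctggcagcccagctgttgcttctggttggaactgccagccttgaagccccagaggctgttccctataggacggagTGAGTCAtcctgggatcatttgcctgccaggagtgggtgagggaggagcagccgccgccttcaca
ITGA5, chr12:54419266-54419516, minus strand: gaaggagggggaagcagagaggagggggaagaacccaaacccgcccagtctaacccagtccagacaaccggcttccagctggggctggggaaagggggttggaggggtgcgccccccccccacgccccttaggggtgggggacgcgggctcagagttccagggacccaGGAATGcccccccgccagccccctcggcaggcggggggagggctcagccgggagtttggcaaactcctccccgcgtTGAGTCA
ITGA2, chr5:52989102-52989352, plus strand: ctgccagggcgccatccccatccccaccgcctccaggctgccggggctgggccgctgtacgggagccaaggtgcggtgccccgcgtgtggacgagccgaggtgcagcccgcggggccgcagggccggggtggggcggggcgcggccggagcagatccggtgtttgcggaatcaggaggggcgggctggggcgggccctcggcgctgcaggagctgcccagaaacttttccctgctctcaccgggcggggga
The TEAD motif began 69 bases before the RefSeq start of TRIP6 and 82 before that of ITGA5, and the AP-1 motif 124 bases before TRIP6, 64 before BCAR1 and 6 before ITGA5. The spans printed for these genes below come from another annotation and begin further upstream. By those spans, most of the TRIP6 and ITGA5 stretches, with all of their marked motifs, lies inside the gene. BCAR1 had 5 RefSeq promoters, of which the one shown was picked because it held a motif, and the other 4 held no TEAD, AP-1 or CArG motif. The stretches of TRIP6 and ITGA5 each held both motifs, and this stretch of ITGA2 held neither. Whether the motifs bear on the changes was not tested. RefSeq promoters were matched for 33 of the 45 genes, 65 promoters in all, counting 250 bases before and 50 after each start. The TEAD motif was in 11 of the 65 (16.9%), against 14.0% of all 35116 promoters, the AP-1 motif in 7 (10.8%, against 7.71%) and the CArG box of serum response factor in 3 (4.62%, against 1.29%). Several of the promoters with a match belong to LPP, and overlapping LPP promoters held the same TEAD site. A match is a string of letters and no evidence of binding.

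Of the 12 alpha subunits, 9 were tested, 4 fell and 1 rose, a share of 55.6% that is close to the 54.1% of all tested genes. The alpha subunit genes together summed to 652 and 643 CPM in MET+ and 349 and 339 CPM in MET-KO cells. In these 3′ libraries the count of a transcript does not grow with its length, so CPM values are used here as levels per transcript, and levels of different genes are compared on that scale only. ITGA6 (ENSG00000091409, chr2:172427354-172506282, plus strand), the laminin-binding alpha chain, was the most abundant integrin gene in every library, at 467 and 456 CPM in the MET+ libraries, against 261 and 261 CPM in the MET-KO libraries. It fell by 0.82 on the log2 scale (95% interval -1.0 to -0.64, edgeR adjusted p = 1.49e-09), and its share of all alpha subunit counts was 71.6% and 70.9% in MET+ and 74.7% and 76.9% in MET-KO cells. Although its level fell, ITGA6 remained the leading alpha chain.

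The second alpha chain of MET+ cells was ITGA2 (ENSG00000164171, chr5:52989326-53094779, plus strand), the collagen receptor chain whose promoter is shown above. ITGA2 stood at 98.2 and 97.1 CPM in the MET+ libraries, against 14.7 and 13 CPM in the MET-KO libraries, 7.04-fold lower in MET-KO cells. This gave a log2 fold change of -2.82 (95% interval -3.07 to -2.56, edgeR adjusted p = 1.05e-19). Its share of the alpha subunit counts went from 15.1% in both MET+ libraries to 4.21% and 3.84% in MET-KO libraries. ITGA1 (ENSG00000213949, chr5:52787896-52959210, plus strand), the other collagen-binding chain with enough counts and the neighbour of ITGA2 on chromosome 5, went the other way, standing at 3.98 and 4.1 CPM in MET+ against 8.71 and 6.8 CPM in MET-KO cells. On the log2 scale the change was 0.94 (95% interval 0.37 to 1.51, edgeR adjusted p = 0.00525). The call for ITGA1 rested on few reads, 33 and 40 in MET+ against 89 and 74 in MET-KO cells, and it was lost in DESeq2 (adjusted p = 0.0758) and without MET-KO replicate 1 (edgeR adjusted p = 0.116). Of the other 2 collagen-binding chains, ITGA10 had 1, 5, 1 and 5 counts and ITGA11 none in any library, which allows up to 3 counts per library.

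ITGA3 (ENSG00000005884, chr17:50055968-50090481, plus strand), a laminin receptor chain, was at 24.1 and 27.6 CPM in the MET+ libraries, against 12.7 and 12.1 CPM in the MET-KO libraries. The change came to -1.06 on the log2 scale (95% interval -1.39 to -0.72, edgeR adjusted p = 1.54e-06). ITGA5 (ENSG00000161638, chr12:54395261-54419460, minus strand), which with beta 1 forms the fibronectin receptor, was at 15.9 and 16.7 CPM in the MET+ libraries, against 7.24 and 4.96 CPM in the MET-KO libraries. In edgeR the change was -1.42 on the log2 scale (95% interval -1.86 to -0.98, adjusted p = 1.05e-06). Both genes fell by a factor of over 2, 2.08-fold and 2.68-fold, and neither pair of libraries overlapped the other. The muscle-type laminin chain ITGA7 was at 3.86 and 7.07 CPM in MET+ against 3.43 and 3.12 CPM in MET-KO cells (log2 fold change -0.75, edgeR adjusted p = 0.0547), with the MET+ replicates further apart than the MET-KO ones; it passed the test without MET+ replicate 1 (log2 fold change -1.11, edgeR adjusted p = 0.00326), and without MET+ replicate 2 the log2 fold change was -0.25 (edgeR adjusted p = 0.658). ITGA7 overlaps METTL7B on the opposite strand.

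The remaining tested alpha chains did not pass the test. ITGAV, the chain of the vitronectin and TGF-beta-activating receptors, was at 17 and 13.1 CPM in MET+ against 19.3 and 16.5 CPM in MET-KO cells. The fitted log2 fold change was 0.26 (95% interval -0.11 to 0.62, edgeR adjusted p = 0.230). ITGAE, known from intraepithelial lymphocytes where it pairs with beta 7, was at 19.3 and 18.2 CPM in MET+ against 17.3 and 17.5 CPM in MET-KO cells (log2 fold change -0.11, edgeR adjusted p = 0.603). ITGA9, a tenascin and VCAM-1 receptor chain, was at 2.9 and 2.77 CPM in MET+ against 4.6 and 4.04 CPM in MET-KO cells (log2 fold change 0.61, edgeR adjusted p = 0.137). ITGA4, the chain of leukocyte homing receptors, had no count in any library.

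Of the 8 beta subunits, 7 were tested, 3 fell and 2 rose, and the most abundant of them differed between the states. ITGB4 (ENSG00000132470, chr17:75721328-75757818, plus strand), the long-tailed partner of alpha 6 in hemidesmosomes, was at 244 and 243 CPM in the MET+ libraries, against 63.9 and 65.9 CPM in the MET-KO libraries, a fall of 3.75-fold. A log2 fold change of -1.91 was fitted (95% interval -2.1 to -1.71, edgeR adjusted p = 5.18e-18). ITGB5 (ENSG00000082781), a vitronectin receptor chain, was at 108 and 113 CPM in the MET+ libraries, against 128 and 110.1 CPM in the MET-KO libraries, which did not pass the test. The log2 fold change was 0.11 (95% interval -0.09 to 0.31, edgeR adjusted p = 0.361). Hence ITGB4 held 65.7% and 64.3% of beta subunit counts in MET+ against 30.6% and 33.4% in MET-KO cells, while ITGB5 held 29% and 29.8%, then 61.1% and 55.9%. The 3′ end of ITGB4 overlaps GALK1 on the opposite strand, which had 61 and 137 counts in MET+ against 206 and 246 in MET-KO cells. The summed beta level was 371 and 377 CPM in MET+ and 209 and 197 CPM in MET-KO cells.

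ITGB1, the beta chain shared by most alpha chains, was counted at a low level for its role, 12.9 and 16.1 CPM in the MET+ libraries, against 10.3 and 13.3 CPM in the MET-KO libraries. This gave a log2 fold change of -0.30 (95% interval -0.70 to 0.10, edgeR adjusted p = 0.200). The 12 alpha chains that can pair with it summed to 633 and 625 CPM in MET+ and 331 and 322 CPM in MET-KO cells, and still to 149 and 156, then 51.5 and 44.6 CPM, when ITGA6 and ITGAV, which also have other partners, were left out. Near the 3′ end of ITGB1, a stretch of 80 bases was 97.5% identical to RSRC2, a gene with 578 to 972 counts per library. How reads with several matches were counted is not given in the sources used here. The part of this in the level of ITGB1 was not tested. The beta subunit shares, sums and ranking above, and the pairs with beta 1 below, share this limit.

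Of the scarce beta chains, 4 differed between the states. ITGB6 (ENSG00000115221, chr2:160099666-160200313, minus strand), the epithelial chain of a TGF-beta-activating receptor, was at 2.41 and 2.97 CPM in the MET+ libraries, against 0.391 and 0.551 CPM in the MET-KO libraries. On the log2 scale the change was -2.48 (95% interval -3.59 to -1.37, edgeR adjusted p = 2.43e-04). ITGB8 (ENSG00000105855, chr7:20330702-20415754, plus strand), the other TGF-beta-activating chain, was at 1.81 and 1.13 CPM in the MET+ libraries, against 4.6 and 4.96 CPM in the MET-KO libraries. The change came to 1.72 on the log2 scale (95% interval 0.91 to 2.52, edgeR adjusted p = 4.19e-04). These 2 partners of ITGAV therefore moved in opposite directions, ITGB6 down and ITGB8 up, at levels under 5 CPM.

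ITGB7 (ENSG00000139626, chr12:53191318-53207307, minus strand), a chain of mucosal lymphocyte integrins, had 19 and 17 counts in MET+ against 1 count in each MET-KO library, or 2.29 and 1.74 CPM in MET+ against 0.0979 and 0.0919 CPM in MET-KO cells. The ratio of MET+ over MET-KO cells was 21.0, with a counting interval of 5.42 to 180 (exact binomial, 95%, counting error only), and the edgeR adjusted p was 2.32e-05. The last 300 bases of ITGB7 are antisense to ZNF740, which had 129 and 196 counts in MET+ against 141 and 133 in MET-KO cells, and the strand setting of the authors' counting is not given in the sources used here. ITGB2 (ENSG00000160255, chr21:44885953-44931989, minus strand), the beta chain of leukocyte integrins, had no count in MET+ cells, against 21 and 22 counts in MET-KO cells, 2.06 and 2.02 CPM, and was at least 6.09-fold higher there against a floor of 3 counts per library (edgeR adjusted p = 4.40e-06). Of the 8 leukocyte markers, 6 were at 0 in every library, PTPRC, CD3E, CD3D, MS4A1 and CSF1R among them, CD14 had 2, 0, 0 and 3 counts, and LYZ was lower in MET-KO cells, as given above. ITGB3 had 1 count in each MET+ library and 0 and 1 in the MET-KO libraries.

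**Figure D2:**
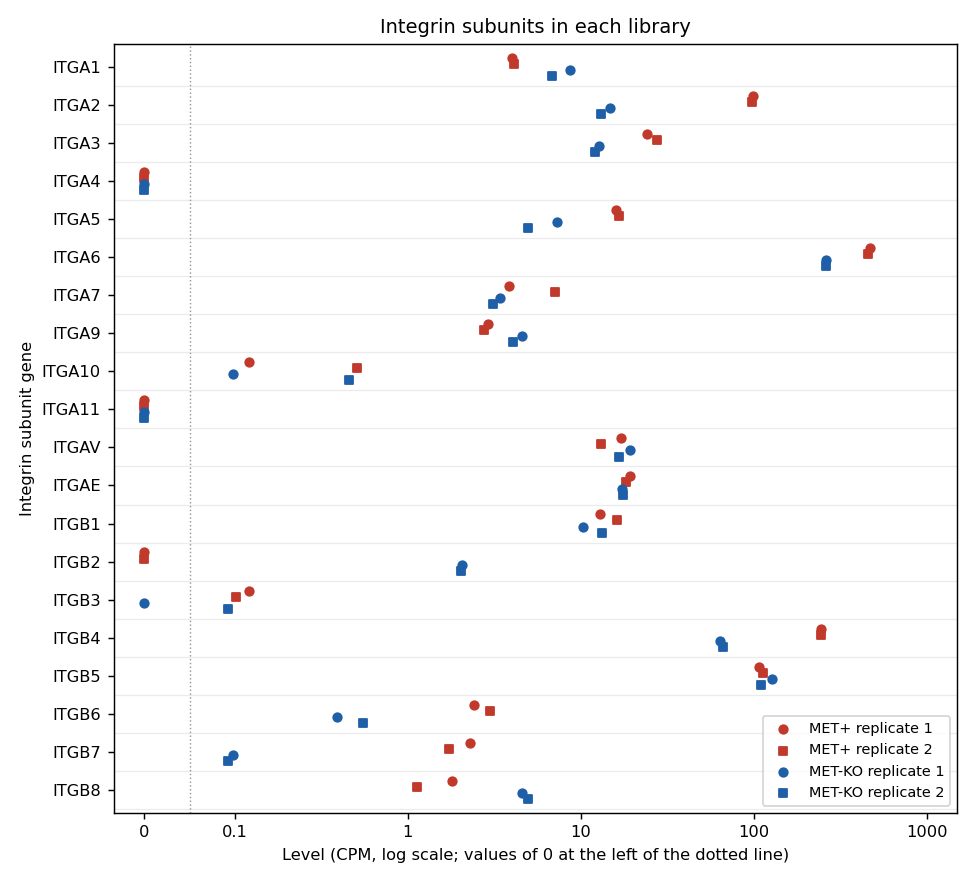
Levels of the 20 integrin subunit genes in CPM on a log axis, 1 point per library, red for MET+ and blue for MET-KO cells, with values of 0 to the left of the dotted line. ITGA2 and ITGB4 lie lower in both MET-KO libraries, ITGB5 lies between 108 and 128 CPM in all 4, and ITGB2 has points above 0 in MET-KO cells alone among these libraries.

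An integrin reaches the cell surface only as a pair, so 24 known alpha and beta pairs were listed, and a pair was counted where both mRNAs were at 1 CPM or more in both libraries of a state. By this count 13 pairs were listed in MET+ and 11 in MET-KO cells, and all 11 were also among the 13. The 2 pairs listed in MET+ cells alone were alpha V with beta 6 and alpha E with beta 7, in which the beta chain fell below the level. At 5 CPM the counts were 7 and 7 with 6 in common. Alpha 5 with beta 1 was then listed in MET+ cells alone and alpha 1 with beta 1 in MET-KO cells alone. Both rest on values close to the level, ITGA5 at 7.24 and 4.96 CPM in MET-KO and ITGA1 at 3.98 and 4.1 CPM in MET+ cells. These counts describe mRNA and not the receptors on the surface.

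By ligand, 2 of 4 collagen receptors were listed in each state, alpha 1 and alpha 2 with beta 1, and their alpha chains changed in opposite directions as given above. All 4 laminin receptors were listed in both states. In the hemidesmosome pair of alpha 6 and beta 4 the scarcer mRNA was ITGB4 in every library, at 244 and 243 CPM in MET+ and 63.9 and 65.9 CPM in MET-KO cells, which were the highest values of any pair in both states. Of 8 receptors of the RGD motif, found in fibronectin and vitronectin, 5 were listed in MET+ and 4 in MET-KO cells. In the fibronectin receptor the scarcer mRNA was ITGB1 in MET+ (mean 14.5 CPM) and ITGA5 in MET-KO cells (mean 6.10 CPM). In MET+ cells the 2 chains lay close together, ITGB1 at 12.9 and 16.1 CPM and ITGA5 at 15.9 and 16.7 CPM. With the level of ITGB1 uncertain, as given above, the scarcer chain of its pairs is uncertain too. The vitronectin receptor of alpha V and beta 5 was set by ITGAV, with means of 15.1 and 17.9 CPM.

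Of the 8 leukocyte-type pairs, 2 were listed in MET+ and 1 in MET-KO cells, alpha 9 with beta 1 being the shared one. ITGB2, although detected in MET-KO cells, had no partner at 1 CPM: ITGAL, ITGAX and ITGAD were at 0 in every library, and ITGAM had 0, 2, 1 and 0 counts. The other subunits outside the 45 were as scarce, with ITGA8 at 0 and ITGA2B at 0.102 to 0.724 CPM.

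**Figure D3:**
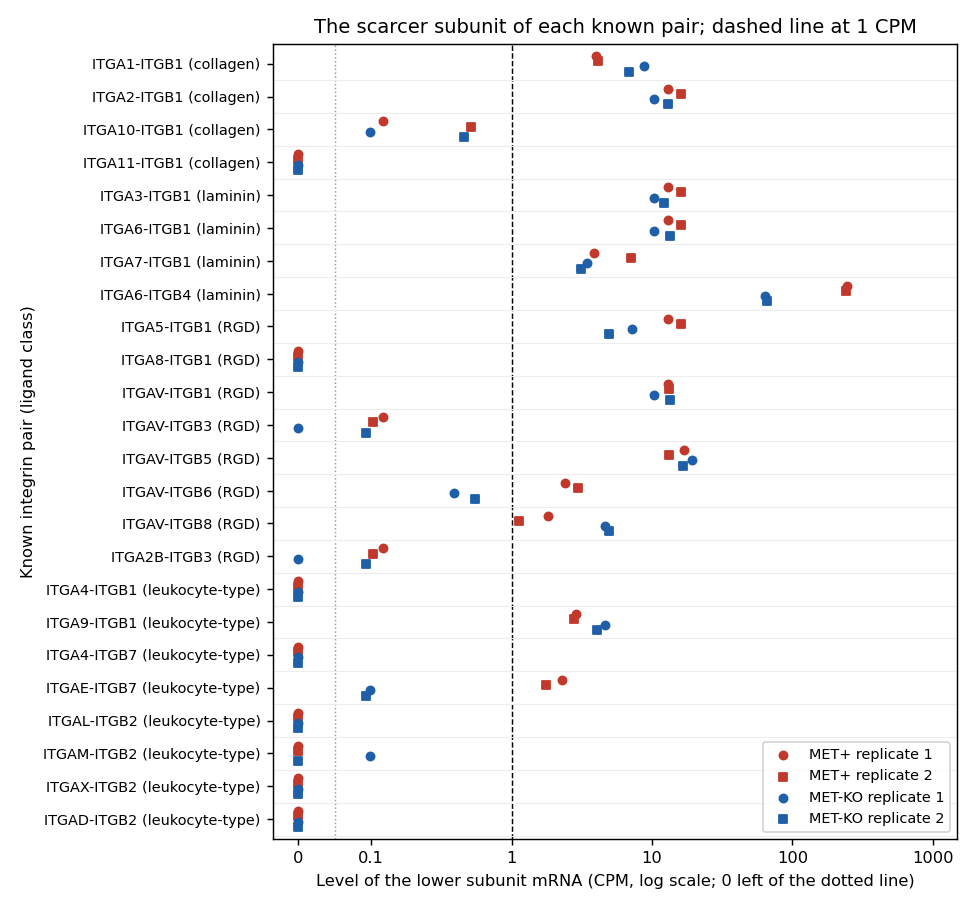
The level in CPM, on a log axis, of the scarcer mRNA of 24 known integrin pairs in each library, red for MET+ and blue for MET-KO cells, with the level of 1 CPM dashed and values of 0 left of the dotted line. The pair of ITGA6 and ITGB4 stands highest at 244 and 243 against 63.9 and 65.9 CPM, and the pairs of ITGB6 and ITGB7 cross the dashed line between the states.

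Of the 4 integrin activators, 2 fell, 1 rose and 1 did not pass the test. FERMT1 (ENSG00000101311, chr20:6074845-6123544, minus strand), the epithelial kindlin, was at 393 and 398 CPM in the MET+ libraries, against 49.6 and 53.6 CPM in the MET-KO libraries, 7.66-fold lower. In edgeR the change was -2.94 on the log2 scale (95% interval -3.14 to -2.73, adjusted p = 6.20e-23). FERMT2 (ENSG00000073712), the kindlin of most other cell types, was at 38.4 and 40.6 CPM in MET+ against 60.6 and 58.4 CPM in MET-KO cells. The fitted log2 fold change was 0.59 (95% interval 0.36 to 0.82, edgeR adjusted p = 4.18e-05). The kindlins thus moved in opposite directions, and the share of FERMT1 in their summed counts went from 91.1% and 90.7% to 45% and 47.9%. FERMT3, the kindlin of blood cells, had at most 1 count per library.

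The talins bind the beta tail and couple it to actin. TLN2 (ENSG00000171914, chr15:62390526-62844631, plus strand) was at 172 and 207 CPM in the MET+ libraries, against 85.6 and 79.1 CPM in the MET-KO libraries. A log2 fold change of -1.20 was fitted (95% interval -1.41 to -1.0, edgeR adjusted p = 3.91e-12). TLN1, the talin found in nearly all tissues, was at 72.3 and 85 CPM in MET+ against 72.3 and 74.6 CPM in MET-KO cells. The log2 fold change was -0.10 (95% interval -0.31 to 0.12, edgeR adjusted p = 0.447). TLN2 remained the larger of the talins, with 70.5% and 70.9% of their counts in MET+ against 54.2% and 51.5% in MET-KO cells.

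ILK, a pseudokinase, joins a PINCH and a parvin in a complex that links beta tails to actin. ILK was at 42.1 and 50.6 CPM in MET+ against 48.9 and 42.5 CPM in MET-KO cells and LIMS1, which encodes PINCH1, at 23.6 and 20.5 CPM in MET+ against 22.2 and 21.4 CPM in MET-KO cells; neither passed the test, with log2 fold changes of -0.02 and -0.01 and edgeR adjusted p of 0.882 and 0.951. PARVA (ENSG00000197702, chr11:12377185-12535356, plus strand), the alpha parvin, was at 6.64 and 3.89 CPM in the MET+ libraries, against 48 and 52.2 CPM in the MET-KO libraries, 9.66-fold higher. This gave a log2 fold change of 3.27 (95% interval 2.9 to 3.64, edgeR adjusted p = 5.86e-17). PARVB, the beta parvin, was at 34.7 and 41 CPM in MET+ against 48.8 and 47.5 CPM in MET-KO cells (log2 fold change 0.34, edgeR adjusted p = 0.0156), a call lost in DESeq2 (adjusted p = 0.117) and without MET+ replicate 1 or MET-KO replicate 1 (edgeR adjusted p = 0.179 and 0.0735). The share of PARVA in both parvins went from 16.0% and 8.68% to 49.5% and 52.4%.

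Among genes outside the 45, LIMS2, which encodes PINCH2, was at 2.17 and 1.43 CPM in MET+ against 22.9 and 23.5 CPM in MET-KO cells. On the log2 scale the change was 3.70 (95% interval 3.19 to 4.21, edgeR adjusted p = 1.43e-14). Beside LIMS1 at 20.5 to 23.6 CPM in the 4 libraries, LIMS2 made up 8.41% and 6.54% of the PINCH counts in MET+ against 50.8% and 52.4% in MET-KO cells. The last 300 bases of LIMS1 are 99.3% identical to those of LIMS3 and LIMS4, which had no count, and those of ILK are antisense to TAF10, with 80 and 115 counts in MET+ against 195 and 153 in MET-KO cells, so both levels are uncertain.

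**Figure D4:**
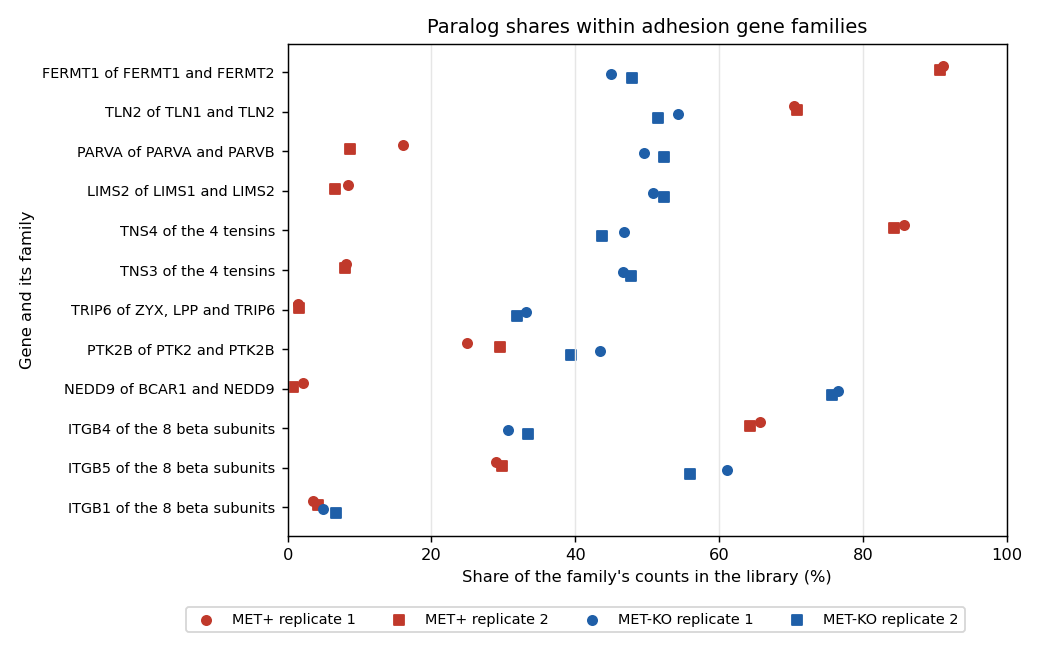
Share in percent of each named gene in the summed counts of its family, 1 point per library, red for MET+ and blue for MET-KO cells. FERMT1, TNS4 and ITGB4 go from 64.3% to 91.1% in MET+ to 30.6% to 47.9% in MET-KO cells, and PARVA, LIMS2, TNS3, TRIP6 and NEDD9 go from at most 16.0% to 31.9% or more.

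Of the 6 kinases and scaffolds, 2 rose, 2 fell and 2 did not pass the test. BCAR1 (ENSG00000050820, chr16:75228187-75268053, minus strand), which encodes the stretch-sensitive scaffold p130Cas, was at 33.5 and 41 CPM in the MET+ libraries, against 141 and 136 CPM in the MET-KO libraries, 3.71-fold higher. The change came to 1.89 on the log2 scale (95% interval 1.67 to 2.11, edgeR adjusted p = 2.62e-16). PTK2B, which encodes the FAK relative PYK2, was at 8.57 and 10.1 CPM in MET+ against 18.9 and 16.3 CPM in MET-KO cells. In edgeR the change was 0.90 on the log2 scale (95% interval 0.51 to 1.29, adjusted p = 1.60e-04). PTK2, the gene of FAK itself, was at 25.8 and 24.2 CPM in MET+ against 24.7 and 25.1 CPM in MET-KO cells. The fitted log2 fold change was -0.01 (95% interval -0.29 to 0.28, edgeR adjusted p = 0.980). Each MET-KO library exceeded each MET+ library for BCAR1 and PTK2B, whereas the libraries of PTK2 overlapped, and PTK2B took 24.9% and 29.6%, then 43.4% and 39.3%, of the counts of the 2 kinases.

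PXN, the gene of paxillin, was at 144 and 134 CPM in MET+ against 87.2 and 90.9 CPM in MET-KO cells. A log2 fold change of -0.64 was fitted (95% interval -0.84 to -0.45, edgeR adjusted p = 8.54e-07). Its 3′ end is antisense to PXN-AS1, with 41 and 49 counts in MET+ against 21 and 25 in MET-KO cells. SRC, the tyrosine kinase that acts with FAK, was at 15.8 and 18.9 CPM in MET+ against 11.1 and 12.5 CPM in MET-KO cells (log2 fold change -0.56, edgeR adjusted p = 0.0102), a call lost in DESeq2 (adjusted p = 0.107), without MET+ replicate 2 (edgeR adjusted p = 0.10) and without MET-KO replicate 1 (edgeR adjusted p = 0.0830). TGFB1I1, which encodes the paxillin relative Hic-5, was at 14.1 and 17.9 CPM in MET+ against 18.4 and 17.1 CPM in MET-KO cells (log2 fold change 0.14, edgeR adjusted p = 0.514). Both MET+ libraries were higher than both MET-KO libraries for PXN and SRC, while the libraries of TGFB1I1 overlapped.

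Of the 6 genes grouped here as actin linkers, 4 fell, 1 rose and 1 did not pass the test, with TNS4 placed among them as a member of the tensin family. TNS4 (ENSG00000131746, chr17:40475828-40501597, minus strand), the short tensin that lacks the actin-binding part of the others, was at 114 and 97.7 CPM in the MET+ libraries, against 21.4 and 23.5 CPM in the MET-KO libraries. The log2 fold change was -2.23 (95% interval -2.47 to -1.99, edgeR adjusted p = 1.99e-17). TNS3 (ENSG00000136205, chr7:47275154-47582558, minus strand), a full-length tensin, was at 10.9 and 9.22 CPM in the MET+ libraries, against 21.3 and 25.7 CPM in the MET-KO libraries. This gave a log2 fold change of 1.24 (95% interval 0.87 to 1.6, edgeR adjusted p = 4.66e-07). TNS4 went from 85.7% and 84.3% of tensin counts to 46.8% and 43.7%, and TNS3 from 8.14% and 7.96% to 46.6% and 47.8%, so that their levels overlapped in MET-KO cells. The other tensins were scarce. TNS2 (ENSG00000111077, chr12:53046969-53064372, plus strand), which overlaps SPRYD3 on the opposite strand, was at 3.98 and 4.92 CPM in the MET+ libraries, against 1.17 and 1.47 CPM in the MET-KO libraries (log2 fold change -1.74, 95% interval -2.57 to -0.91, edgeR adjusted p = 4.96e-04), and TNS1 was at 4.22 and 4.1 CPM in MET+ against 1.86 and 3.12 CPM in MET-KO cells (log2 fold change -0.73, edgeR adjusted p = 0.0928).

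VASP (ENSG00000125753, chr19:45506579-45526983, plus strand), which speeds the growth of actin filaments at adhesions, was at 138 and 156 CPM in the MET+ libraries, against 63.9 and 55.5 CPM in the MET-KO libraries. On the log2 scale the change was -1.30 (95% interval -1.51 to -1.09, edgeR adjusted p = 1.07e-12). VCL, the gene of vinculin, was at 78.3 and 69 CPM in MET+ against 54.7 and 56.5 CPM in MET-KO cells (log2 fold change -0.40, edgeR adjusted p = 0.00198), a call lost without MET+ replicate 1 (edgeR adjusted p = 0.0518). VASP was 2.46-fold and VCL 1.32-fold lower in MET-KO cells. The last 300 bases of VCL are antisense to AP3M1, which had 203 and 285 counts in MET+ against 233 and 302 in MET-KO cells.

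Of the 5 genes grouped here as LIM proteins, which bind zyxin-type partners or strained actin at adhesions, 2 rose, 2 fell and 1 did not pass the test. Each gene was given 1 role, and PXN, TGFB1I1 and LIMS1, which also encode LIM proteins, were counted under other roles. TRIP6 (ENSG00000087077, chr7:100867138-100873454, plus strand), a zyxin relative, was at 4.46 and 5.12 CPM in the MET+ libraries, against 134 and 129 CPM in the MET-KO libraries. The change came to 4.77 on the log2 scale (95% interval 4.48 to 5.06, edgeR adjusted p = 1.86e-24). This was 27.3-fold, from 37 and 50 counts to 1373 and 1407, the largest rise among genes of the list with more than 3 counts in every library. TRIP6 went from 1.40% and 1.63% of the summed counts of ZYX, LPP and TRIP6 to 33.2% and 31.9%.

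ZYX, the gene of zyxin, was at 269.8 and 269 CPM in MET+ against 217 and 219 CPM in MET-KO cells (log2 fold change -0.31, edgeR adjusted p = 0.00429), and LPP at 45.7 and 39 CPM in MET+ against 53.5 and 57.6 CPM in MET-KO cells (log2 fold change 0.39, edgeR adjusted p = 0.00471). EPHA1, which overlaps the 3′ end of ZYX on the opposite strand, had 353 and 503 counts in MET+ against 141 and 107 in MET-KO cells. The call for LPP was lost in DESeq2 (adjusted p = 0.0544) and without MET+ replicate 2 (edgeR adjusted p = 0.118). PDLIM7 (ENSG00000196923, chr5:177483394-177497606, minus strand), a PDZ and LIM protein of stress fibers, was at 49.2 and 61.1 CPM in the MET+ libraries, against 23.3 and 19.9 CPM in the MET-KO libraries. In edgeR the change was -1.36 on the log2 scale (95% interval -1.63 to -1.08, adjusted p = 1.45e-10). CSRP1, a small LIM protein of actin bundles, was at 29.2 and 34.2 CPM in MET+ against 28.7 and 26.8 CPM in MET-KO cells (log2 fold change -0.20, edgeR adjusted p = 0.230). Within the zyxin family, then, TRIP6 and LPP were higher and ZYX lower in MET-KO cells.

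A wider list of 56 other adhesion genes held 49 that were tested, of which 16 rose and 11 fell, with a median log2 fold change of 0.07. The share that changed, 55.1%, was close to the 54.1% of all tested genes. The 4 that changed by 2 or more on the log2 scale included LIMS2, given above. NEDD9, the gene of the p130Cas relative HEF1, had 6 and 3 counts in MET+ against 4714 and 4595 in MET-KO cells, a ratio of 885 with a counting interval of 466 to 1935 (edgeR adjusted p = 1.98e-29). NEDD9 went from 2.11% and 0.744% of the summed counts of BCAR1 and NEDD9 to 76.6% and 75.7%. SORBS2, a vinculin-binding adaptor, had 0 and 1 counts in MET+ against 641 and 825 in MET-KO cells, a ratio of 1254 with a counting interval of 225 to 49557 (edgeR adjusted p = 4.54e-23). Moving the other way, CAV1, the gene of caveolin-1, was at 987 and 976 CPM in MET+ against 103 and 105 CPM in MET-KO cells. CAV1 (chr7:116524785-116561184) lies near the edited gene MET (chr7:116672390-116798386), and whether this bears on its level was not tested. For CAV1 the fitted log2 fold change was -3.24 (95% interval -3.44 to -3.04, edgeR adjusted p = 2.34e-24).

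The median change of all genes differed between chromosomes. The median log2 fold change over all tested genes was 0.50 on chromosome 7, 0.30 on chromosome 21, -0.32 on chromosome 12, -0.43 on chromosomes 5 and 15 and -0.51 on chromosome 14, and from -0.01 to 0.14 on the other chromosomes that hold genes of the list. TRIP6, TNS3, ITGB8 and ZYX lie on chromosome 7. TRIP6 stood at percentile 97.9 of the 673 tested genes there, ITGB8 at percentile 87.8 and TNS3 at percentile 79.2. ZYX, which fell, stood at percentile 13.1. ITGA1 rose and FERMT2 rose on chromosomes whose medians were below 0, at percentiles 88.5 and 90.8. After the chromosome's median was subtracted, all 28 genes that passed the test kept the sign of their change, though not always its size. PXN on chromosome 12 went from -0.64 to -0.33 (percentile 33.3) and TLN2 on chromosome 15 from -1.20 to -0.78 (percentile 13.5). The other genes that fell on chromosomes 5 and 12 stood at percentiles 2.49 to 10.9.

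**Figure D5:**
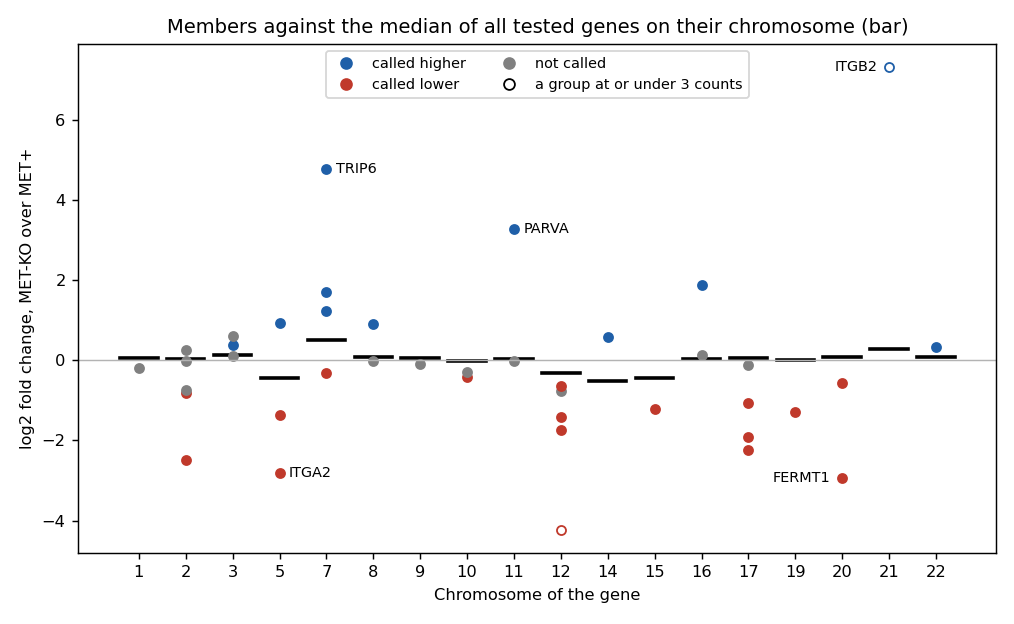
The log2 fold change of MET-KO over MET+ cells for the 41 tested genes by chromosome, as points, with bars for the median of all tested genes on that chromosome. Blue genes rose, red genes fell, grey genes did not pass the test and open points had a group at or under 3 counts in each library; chromosome 7 has its bar at 0.50 and TRIP6 at 4.77.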

How the data were processed

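RNA from 4 libraries of LoVo cells was prepared by the authors with the QuantSeq 3′ kit (FWD), which reads near the 3′ end of each transcript. The deposited files hold raw counts of reads per gene, 58825 genes and 99 spike-in rows that were at 0; no value was normalized before deposit. The submitters' processing notes name cutadapt 1.16, STAR 2.5.4a, featureCounts 1.6.2, DESeq2 1.18.1 and GRCh38; the annotation release, the strand setting and the handling of reads with several matches are not given in the sources used here. Gene IDs were named from GENCODE 29 (58552 matched), whose GRCh38 coordinates are printed. IDs without a GENCODE 29 name held at most 0.00396% of counts.

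Counts were tested in R 4.3.3 with edgeR 4.0.16: filterByExpr by group, TMM scaling, glmQLFit and glmQLFTest with the group as the only term, and Benjamini-Hochberg adjustment over all tested genes, called at 0.05. CPM are counts scaled to a common library total after TMM. With 2 libraries per group an exact permutation test cannot go below p = 0.333, so shares and sums are given per library and were not tested. P-values measure the spread between libraries only. Replicates of 1 group differed by more than sampling noise. Alternatives were DESeq2 1.42.0, its size factors, no scaling, other filters, the replicate block and leaving out each library. Shared 3′ sequence was sought with BLAST 2.17.0 in the last 300 bases of each gene (at least 95% over 60 bases). The scripts were tested on simulated data.

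The 45 genes, the other lists, the 24 pairs and the rule for named genes (every member; other adhesion genes called with a change of 2 or more on the log2 scale) were chosen with earlier results of these data known.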

Additional observations from a re-analysis of the deposited data

How the results depend on the processing

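Of the 28 called genes, ITGA1, VCL, PARVB, LPP and SRC lost their call under at least 1 alternative, and none of the 28 changed direction under any alternative run. Reversals concerned genes that did not pass the test. Without scaling, where the median of all tested genes stood at 0.11 (a shift of 0.10) and 59.2% of calls over all genes were upwards against 50.3%, the log2 fold changes were 0.00466 for TLN1, 0.0769 for ILK, 0.0866 for LIMS1 and 0.0962 for PTK2, all under that median. With at least 10 counts in every library they were 0.0133 for ILK, 0.0249 for LIMS1 and 0.0332 for PTK2. That filter left ITGB2, ITGB6 and ITGB7 untested. Leaving out each library in turn gave -0.00273 to 0.217 for ITGB5, -0.207 to 0.0165 for TLN1, -0.146 to 0.11 for ILK, -0.124 to 0.0923 for LIMS1, -0.061 to 0.0435 for PTK2 and -0.0132 to 0.322 for TGFB1I1. The cause was not tested.

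When a change of 1 or more on the log2 scale was also required, 6 members were called higher, and 9 and 3 of the other adhesion genes higher and lower, fewer by construction. At 5 CPM, 7 integrin pairs were listed in MET+ and 7 in MET-KO cells, also by construction. DESeq2's Wald test called 8 members higher and 16 lower, and leaving out each library gave 9 to 11 higher and 16 to 17 lower. The replicate numbers did not pair the libraries (correlation of deviations -0.0508), and with the replicate block 11 members were called higher and 17 lower. Without scaling, 18 of the other adhesion genes were called higher and 8 lower. ITGA10 and ITGB3, at 0 to 0.512 CPM, could not be tested at this depth.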

Other observations

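Among the 49 tested of the 56 other adhesion genes, 9 rose and 3 fell by 1 or more on the log2 scale. These 12 are close to the share of all 13801 tested genes that changed this much, 24.3%. Most of those not yet described are given here as single values. This limit was chosen after their values were seen. The LIM and PDZ proteins PDLIM1 and PDLIM5, which bind alpha-actinin on stress fibers, were at 100.4 and 99.2 CPM in MET+ against 226 and 213 CPM in MET-KO cells (log2 fold change 1.14, edgeR adjusted p = 2.38e-12) and at 165 and 159 CPM in MET+ against 357 and 300.3 CPM in MET-KO cells (log2 fold change 1.02, edgeR adjusted p = 6.28e-11). The matrix co-receptor SDC4, a syndecan that acts with the fibronectin receptor, was at 68.1 and 70.9 CPM in MET+ against 179.9 and 158 CPM in MET-KO cells (log2 fold change 1.28, edgeR adjusted p = 6.69e-13). FBLIM1, which encodes the kindlin partner migfilin, was at 1.93 and 0.717 CPM in MET+ against 4.31 and 5.05 CPM in MET-KO cells (log2 fold change 1.86, edgeR adjusted p = 4.02e-04). DAB2, an adaptor in integrin endocytosis, was at 1.81 and 1.95 CPM in MET+ against 2.74 and 5.61 CPM in MET-KO cells (log2 fold change 1.15, edgeR adjusted p = 0.0165), with the MET-KO libraries further apart than those of MET+ cells.

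Lower in MET-KO cells were PTPN12, a phosphatase that acts on p130Cas, at 121 and 112 CPM in MET+ against 35.5 and 39.1 CPM in MET-KO cells (log2 fold change -1.64, edgeR adjusted p = 6.08e-15), and the adaptor SHC1 at 23.8 and 24.5 CPM in MET+ against 11.7 and 10.6 CPM in MET-KO cells (log2 fold change -1.11, edgeR adjusted p = 1.06e-06). PTPN12 lies on chromosome 7, where the median change of all tested genes was 0.50.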
